A study of Mus musculus with 6 samples.

Results

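Ptx3, Npr3, Cdo1, Palmd, Rflnb and Arxes2 are 6 mouse genes that stood high in wild-type (WT) bone marrow stromal cells and low in stromal cells carrying the Pth1rΔNLS allele. They were chosen by their levels in these same libraries, as genes at 10 FPKM or more in WT with a fall of 4-fold or more in Pth1rΔNLS, and they are 6 of the 11896 genes in the deposited table. An FPKM value divides a transcript's fragments by its length and by the library's total, so levels can be compared between genes. The 6 RNA-seq libraries were of primary marrow stromal cells, 3 WT and 3 Pth1rΔNLS. The design text describes the Pth1rΔNLS mice as heterozygous for an allele of the parathyroid hormone receptor gene Pth1r, whose name marks the loss of a nuclear localisation signal. Age, sex, strain, culture, sorting and whether each library came from its own mouse are stated in none of the labels used here, so p-values measure the spread between these libraries, which may be technical.

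Stromal cells of the marrow are the non-blood cells that make bone, cartilage and fat and that hold the matrix and signals around blood stem cells. The products of the 6 genes act at different places in and around cells. Which cells of these libraries expressed them was not tested. Ptx3 encodes the secreted long pentraxin PTX3, which binds microbes and complement and helps cross-link hyaluronan in the matrix of the ovulating follicle. Npr3 encodes the natriuretic peptide clearance receptor, which takes up and removes natriuretic peptides, and mice that lack it have overgrown bones. Cdo1 encodes cysteine dioxygenase, the enzyme that commits cysteine to the route towards taurine. Palmd encodes palmdelphin, a cytosolic member of the paralemmin family. Rflnb encodes refilin B, a partner of the actin cross-linking filamins. Arxes2 is a gene of the mouse X chromosome that arose as a copied RNA of the signal peptidase subunit gene Spcs3 and is known for its part in fat cell differentiation.

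The values that chose the genes come first and carry no test. Of 5110 genes at 10 FPKM or more in WT, 32 had a Pth1rΔNLS mean lower by 4-fold or more. None of the 5110 was higher by as much (0 genes). The 10 FPKM limit was set on the WT mean alone, so genes that rose from a lower WT level were left out in advance. The balance of large falls and rises therefore cannot be read from these counts. The 6 genes were all among the 8 steepest of the 32, with Bmp4, a bone morphogenetic protein, and Col8a2, a network-forming collagen chain, as the other two. Nearest inside the 4-fold limit was Ccdc80, whose WT mean was 109.6 ± 1.44 FPKM beside 27.3 ± 0.649 FPKM in Pth1rΔNLS (SD, n = 3 each, here and below). Nearest outside was Pawr, at 17.1 ± 1.33 and 4.29 ± 0.337 FPKM. Both sat far from the 6 genes, whose means were lower by 5.63-fold (Rflnb) to 12.5-fold (Palmd). In each of the 6 genes every WT library stood above every Pth1rΔNLS library. Of all tested genes, 36.6% had genotypes without overlap and 20% were lower without overlap, and nothing is read from this for genes chosen on the contrast. In bulk RNA such as this, fewer cells of a type and less RNA per cell cannot be told apart.

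**Figure D1:**
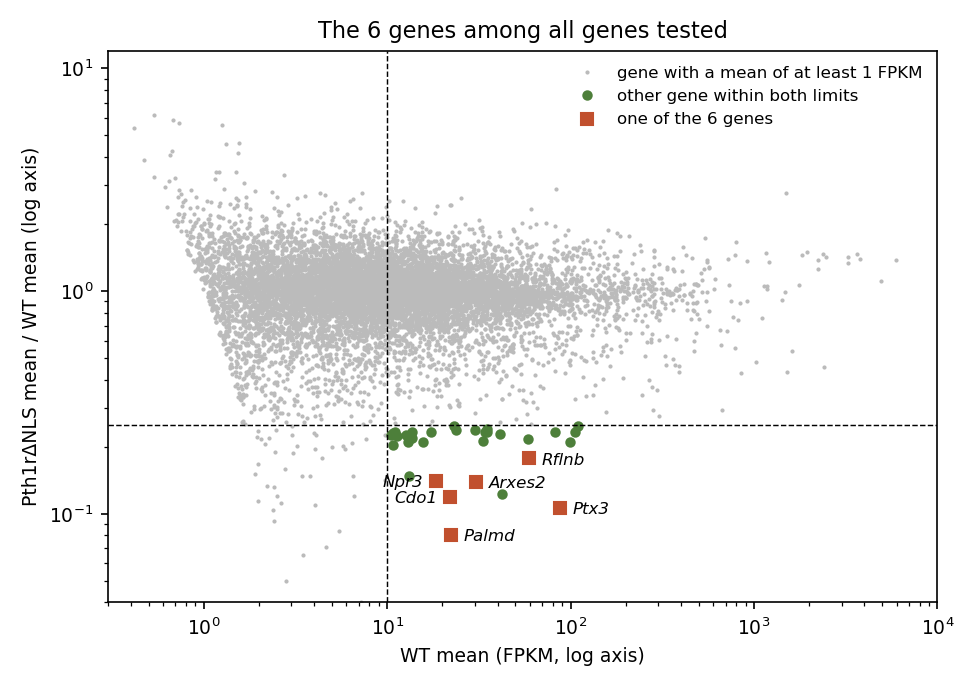
Each point is 1 of the tested genes, placed by its WT mean in FPKM (log axis) and by the ratio of the Pth1rΔNLS mean to the WT mean (log axis), and dashed lines mark 10 FPKM and a 4-fold fall. Orange squares are the 6 genes, which lie lower than nearly all of the 26 other genes within both limits (green). The 2 green points within the range of heights of the 6 genes are Bmp4 and Col8a2.

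RefSeq promoter windows, 250 bases before to 50 bases after the annotated start on GRCm38.p6 (the same assembly as mm10), were at hand for 4 of the 6 genes, Ptx3, Npr3, Rflnb and Arxes2. They are shown to compare the letters in front of genes that moved together. Capitals mark every match, on either strand, to 8 motifs searched: AP-1 TGANTCA, the cAMP response element TGACGTCA, the nuclear receptor half-site AGGTCA, RUNX TGTGGT, TEAD GGAATG, the TATA box TATAAA, the CCAAT box CCAAT and C/EBP TTGCNNAA. All are read 5′ to 3′ in the direction of the gene.
Ptx3: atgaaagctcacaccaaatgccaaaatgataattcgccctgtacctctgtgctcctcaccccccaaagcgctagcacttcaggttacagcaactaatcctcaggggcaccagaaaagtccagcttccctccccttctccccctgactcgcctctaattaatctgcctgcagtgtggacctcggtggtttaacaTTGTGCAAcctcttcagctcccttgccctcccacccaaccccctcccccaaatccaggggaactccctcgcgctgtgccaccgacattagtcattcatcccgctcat
Npr3: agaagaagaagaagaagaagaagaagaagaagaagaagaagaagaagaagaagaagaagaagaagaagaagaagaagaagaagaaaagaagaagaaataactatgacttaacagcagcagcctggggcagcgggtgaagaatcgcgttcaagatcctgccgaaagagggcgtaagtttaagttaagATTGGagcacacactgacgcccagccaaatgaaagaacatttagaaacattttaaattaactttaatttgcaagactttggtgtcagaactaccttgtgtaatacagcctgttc
Rflnb: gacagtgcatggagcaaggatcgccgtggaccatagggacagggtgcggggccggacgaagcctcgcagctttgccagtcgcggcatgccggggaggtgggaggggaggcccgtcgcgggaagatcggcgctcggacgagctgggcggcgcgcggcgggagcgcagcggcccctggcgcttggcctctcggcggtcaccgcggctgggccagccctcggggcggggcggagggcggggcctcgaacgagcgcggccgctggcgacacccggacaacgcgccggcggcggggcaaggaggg
Arxes2: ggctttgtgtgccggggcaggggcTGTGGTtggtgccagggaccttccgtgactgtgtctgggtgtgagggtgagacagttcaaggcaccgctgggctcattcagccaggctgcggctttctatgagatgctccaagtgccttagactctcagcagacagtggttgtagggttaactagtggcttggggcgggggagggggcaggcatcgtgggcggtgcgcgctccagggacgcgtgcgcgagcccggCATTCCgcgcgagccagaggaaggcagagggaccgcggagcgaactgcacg
The windows are chr3:66219637-66219936 (plus strand) for Ptx3, chr15:11907322-11907621 (minus) for Npr3, chr11:76027733-76028032 (minus) for Rflnb and chrX:135993570-135993869 (plus) for Arxes2. No motif occurred in more than 1 of the 4 windows. Ptx3 held 1 C/EBP match, a motif in 10.8% of the 32851 windows of this length in the table, and Npr3 held 1 CCAAT match (37.4% of all windows). Arxes2 held 1 RUNX match (16.8%) and 1 TEAD match (14.7%), Rflnb held no match, and no match to AP-1, the cAMP response element, the nuclear receptor half-site or the TATA box was found in any of the 4. Their base composition differed as well. GC content was 54.7% in Ptx3, 39% in Npr3, 77% in Rflnb and 65% in Arxes2, against a median of 52.7% over all windows. The Npr3 window opens with a long GAA repeat. The windows use RefSeq starts, which for Ptx3, Npr3 and Arxes2 differ from the gene starts given below. The Npr3 window lies wholly before the gene start given below.

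Ptx3 (ENSMUSG00000027832.5, chromosome 3, 66219910 to 66225805 on mm10) was the most abundant of the 6 in WT. It stood at 94.8, 81.0 and 87.7 FPKM in WT libraries 1, 2 and 3, and at 8.87, 9.57 and 9.50 FPKM in Pth1rΔNLS libraries 1, 2 and 3. The libraries of the genotypes did not overlap, and the lowest WT value was 8.47 times the highest Pth1rΔNLS value. The means were 87.8 ± 6.88 and 9.31 ± 0.388 FPKM, a 9.43-fold fall, or -3.10 on the log2(FPKM + 1) scale. In WT the gene was above 94.7% of the 10905 tested genes (those averaging 1 FPKM or more), and in Pth1rΔNLS above 51.4% of them. The values rest on 1 listed transcript of 2 annotated, with 3 exons. Ptx3 lies inside Veph1, a gene of the opposite strand that was not analysed here.

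Npr3 (ENSMUSG00000022206.7, chromosome 15, 11839896 to 11907287) was at 18.7, 19.9 and 16.6 FPKM in WT and 2.64, 2.70 and 2.38 FPKM in Pth1rΔNLS. No library overlapped, and the means of 18.4 ± 1.67 and 2.58 ± 0.171 FPKM differed 7.13-fold (-2.44 on the log2 scale). It was the least abundant of the 6 in WT. Its 3 listed transcripts, of 5 annotated, all had lower means in Pth1rΔNLS, but not to the same degree. ENSMUST00000066529.4, the main form with 80.8% of the gene's FPKM in WT, went from 14.9 ± 1.78 to 1.97 ± 0.272 FPKM. ENSMUST00000228489.1 went from 2.70, 2.60 and 2.96 FPKM to values listed at 0, 0.661 and 0 FPKM, and an exact 0 in such a table can be a failed estimate. ENSMUST00000228603.1 went from 0.776 ± 0.0962 to 0.383 ± 0.142 FPKM.

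Cdo1 (ENSMUSG00000033022.8, chromosome 18, 46713193 to 46728395) was at 20.5, 23.96 and 21.2 FPKM in WT and 2.51, 2.39 and 2.90 FPKM in Pth1rΔNLS. Every WT library stood above every Pth1rΔNLS library, by at least 7.08-fold. The means were 21.9 ± 1.82 and 2.60 ± 0.265 FPKM, an 8.42-fold fall (-2.67 on the log2 scale), from 1 listed transcript of 5 annotated.

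Palmd (ENSMUSG00000033377.14, chromosome 3, 116918258 to 116968987) had the steepest fall of the 6 in fold. Its level was 24.2, 21.4 and 20.99 FPKM in WT and 2.12, 1.54 and 1.68 FPKM in Pth1rΔNLS, with means of 22.2 ± 1.75 and 1.78 ± 0.304 FPKM (12.5-fold, -3.06 on the log2 scale). It went from above 76.6% of tested genes in WT to above 8.67% of them. The transcript ENSMUST00000040097.13 held 96.3% of the gene's FPKM in WT and went from 21.4 ± 2.23 to 1.56 ± 0.132 FPKM. The other listed transcript, ENSMUST00000119557.7, was at 0.275, 1.08 and 1.14 FPKM in WT and 0.409, 0.0585 and 0.193 FPKM in Pth1rΔNLS, and these values overlap.

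Rflnb (ENSMUSG00000020846.6, chromosome 11, 76019194 to 76027782) was at 65.3, 52.8 and 60.6 FPKM in WT and 9.96, 10.8 and 10.97 FPKM in Pth1rΔNLS. The means were 59.6 ± 6.31 and 10.6 ± 0.540 FPKM, a 5.63-fold fall (-2.38 on the log2 scale), the smallest of the 6. It had the highest Pth1rΔNLS level of the 6 genes, above 55.5% of tested genes, and its 1 annotated transcript is the one listed.

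Arxes2 (ENSMUSG00000048040.8, chromosome X, 135993824 to 135995355) was at 31.1, 31.4 and 29.3 FPKM in WT and 4.06, 4.86 and 3.83 FPKM in Pth1rΔNLS. The means of 30.6 ± 1.14 and 4.25 ± 0.542 FPKM differed 7.19-fold (-2.59 on the log2 scale). Arxes2 has a copy, Arxes1, whose RefSeq start lies 39547 bases away on the same strand. Their 300-base promoter windows are identical (0 positions differ), so the Arxes2 sequence above is also that of chrX:136033117-136033416 in front of Arxes1. The longest run shared by their single-exon transcripts is 639 bases, of the 1532 of Arxes2. Stretches of 100 bases within that run make up the 37.7% of Arxes2 stretches that also occur in Arxes1, so the division of fragments between the copies is uncertain. The sum of the copies depends less on that division, and it was 40.1, 40.4 and 40.4 FPKM in WT and 5.78, 5.90 and 5.20 FPKM in Pth1rΔNLS, a 7.15-fold fall.

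**Figure D2:**
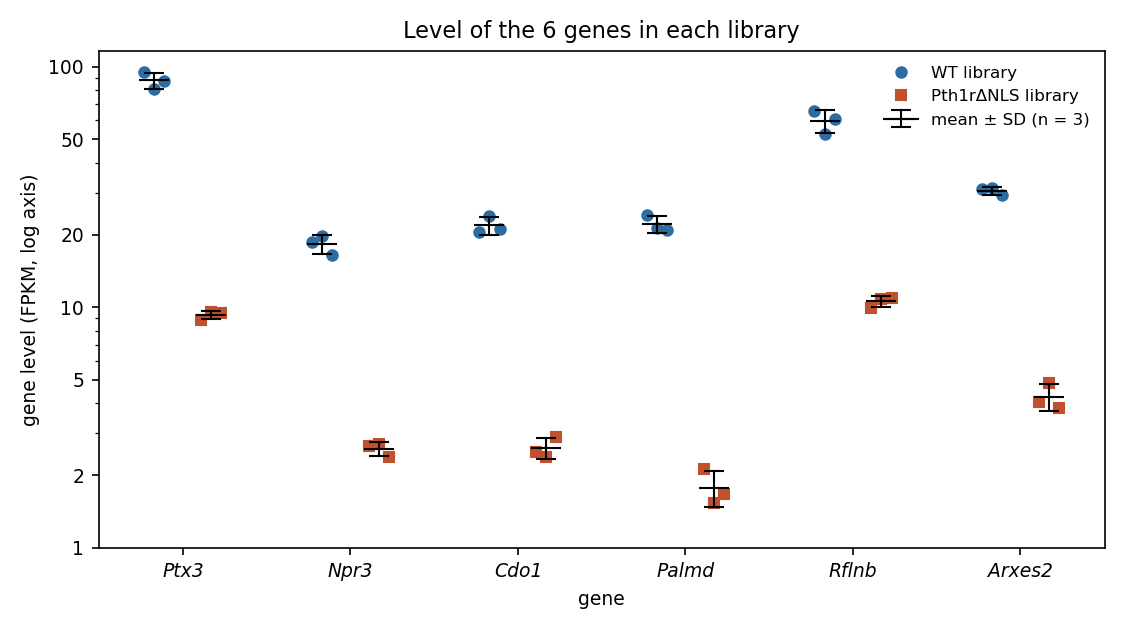
The level of each gene in FPKM (log axis) is shown for each WT library (blue circles) and each Pth1rΔNLS library (orange squares), with black bars for the mean ± SD of 3 libraries. For each gene the 3 Pth1rΔNLS points lie below all 3 WT points, and the order of the genes differs between genotypes.

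Ordered by level in WT, the genes ran Ptx3, Rflnb, Arxes2, Palmd, Cdo1 and Npr3, and of these neighbours only Palmd and Cdo1 had overlapping libraries. In Pth1rΔNLS the order was Rflnb, Ptx3, Arxes2, Cdo1, Npr3 and Palmd, and there only Cdo1 and Npr3 overlapped. Palmd thus stood above Cdo1 and Npr3 in WT means and below both in Pth1rΔNLS. Within a genotype the libraries differed little and in no order common to the 6 genes. WT library 1 was the highest of its group for Ptx3, Palmd and Rflnb, whereas WT library 2 was the highest for Npr3, Cdo1 and Arxes2 and the lowest for Ptx3 and Rflnb. The coefficient of variation was 3.72% (Arxes2) to 10.6% (Rflnb) in WT and 4.16% (Ptx3) to 17.1% (Palmd) in Pth1rΔNLS. Without any 1 library the log2 difference stayed within -3.16 to -3.05 for Ptx3, -3.15 to -3.001 for Palmd, -2.73 to -2.61 for Cdo1, -2.67 to -2.53 for Arxes2, -2.50 to -2.38 for Npr3 and -2.47 to -2.32 for Rflnb.

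The genes with profiles most like each of the 6 were largely others of the 6, which were all chosen on the same contrast. Likeness was the root mean square difference, over the 6 libraries, between log2(FPKM + 1) values centred on each gene's mean. Because that mean spans both genotypes, genes whose falls are of like size lie near each other by construction, and nothing further is read from it. Ptx3 was nearest to Palmd (0.129), then Bmp4 (0.206) and Cdo1 (0.261), and Palmd had Ptx3 (0.129), Bmp4 (0.212) and Cdo1 (0.252). Npr3 was nearest to Arxes2 (0.107), Rflnb (0.157) and Cdo1 (0.166), and Arxes2 to Npr3 (0.107), Bmp4 (0.138) and Cdo1 (0.156). For Cdo1 the nearest were Bmp4 (0.150), Arxes2 (0.156) and Npr3 (0.166). Rflnb alone had none of the other 5 among its nearest 3 genes, which were Col8a2 (0.104), the matricellular gene Ccn5 (0.146) and Fst (0.151), which encodes the activin inhibitor follistatin. The median distance to all tested genes was 1.20 (Rflnb) to 1.56 (Ptx3). Bmp4 went from 42.1 ± 3.09 to 5.17 ± 0.457 FPKM and Col8a2 from 13.2 ± 2.44 to 1.96 ± 0.298 FPKM.

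Across the whole table, 1886 of 10905 genes, 17.3%, passed an adjusted p of 0.05 (limma), 10.4% lower and 6.94% higher in Pth1rΔNLS, and the counts in the paragraphs below are read against these shares. The number was 1209 without WT library 1, 1103 without WT 3, 1146, 1051 and 1115 without Pth1rΔNLS 1, 2 and 3, and 1712 without WT 2. The median log2 difference of all tested genes was -0.01. Markers of the cells themselves also moved. Of 15 tested stromal markers 10 were lower and 0 higher, with log2 differences from -1.76 (Cxcl12) to 0.12 (Nt5e) and a median of -0.54. The summed stromal markers came to 3205 to 3819 FPKM in WT libraries and 1949 to 2105 FPKM in Pth1rΔNLS libraries. That sum includes Vim (916 ± 73.7 and 825 ± 48.1 FPKM) and Fn1 (430 ± 16.8 and 381 ± 23.1 FPKM), which did not pass. The collagen gene Col1a1, also in it, fell from 668 ± 145 to 196 ± 23.7 FPKM, so the sum falls less than some of its markers do. Of 19 tested macrophage markers 14 were higher and 0 lower (median 0.44), and their sum was 6737 to 7023 FPKM in WT and 9050.45 to 9608 FPKM in Pth1rΔNLS. The stromal count was 6 without Pth1rΔNLS 2, and the macrophage count was 8 without WT 1, 7 without WT 3, 7 without Pth1rΔNLS 2 and 9 without Pth1rΔNLS 3. None of the listed markers of either kind was at 0 in all libraries (0 genes), and Thy1, Lepr, Lum and Ccr2 were not analysed here. Mitochondrially encoded transcripts took 6.47 to 12.8% of FPKM in WT and 10.6 to 18.2% in Pth1rΔNLS. The part of cell shares and of mitochondrial content in the levels of the 6 genes was not tested. With WT library 1 and Pth1rΔNLS library 1 left out together (the libraries of lowest and highest mitochondrial share), the differences of the 6 genes were -3.09 (Palmd) to -2.28 (Rflnb), while 5 stromal markers were then lower and 4 macrophage markers higher.

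**Figure D3:**
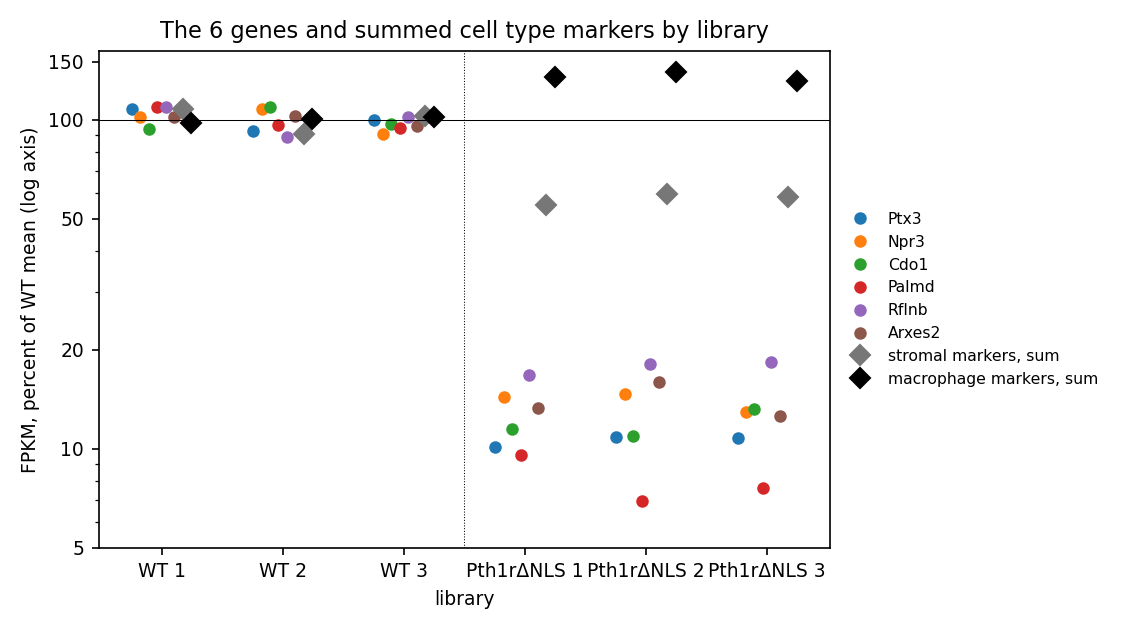
Levels in each library are drawn as a percent of the WT mean (log axis) for the 6 genes (circles) and for the summed FPKM of the stromal and macrophage markers (diamonds). In the Pth1rΔNLS libraries the 6 genes lie between 6.92% (Palmd) and 18.4% (Rflnb). The stromal sum, Vim and Fn1 included, lies between 54.9 and 59.3% and the macrophage sum between 131 and 139%.

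Around Ptx3, genes that make and turn over the hyaluronan matrix were lower for the most part among those that passed. Of 22 genes for pentraxins and hyaluronan 10 were tested, of which 4 fell, 1 rose and 5 did not pass, with a median log2 difference of -0.03. Cemip, whose product is needed for hyaluronan breakdown, was at 45.2, 36.1 and 42.8 FPKM in WT and 8.81, 8.37 and 11.03 FPKM in Pth1rΔNLS, without overlap (-2.03, SE 0.13, adjusted p = 0.000368). Cemip is also one of the 32 genes within the limits above. The hyaluronan synthase Has2 fell from 17.1 ± 1.18 to 11.5 ± 0.524 FPKM (adjusted p = 0.00830), the hyaluronan-binding proteoglycan Vcan from 12.6 ± 1.47 to 7.03 ± 0.648 FPKM (0.00741) and Cemip2 from 26.7 ± 1.41 to 17.7 ± 1.04 FPKM (0.00532). The gene that rose was Hmmr, a hyaluronan receptor that also serves the mitotic spindle (5.61 ± 0.416 to 9.90 ± 0.905 FPKM, adjusted p = 0.00607). The receptor Cd44 was at 141 ± 25.7 and 163 ± 22.7 FPKM (adjusted p = 0.403). Tnfaip6, whose product works with PTX3 in cross-linking hyaluronan, was too low to test, at 0.745, 1.39 and 0.603 FPKM in WT and 0.706, 0.439 and 0.397 FPKM in Pth1rΔNLS, and these overlapped. With WT 1 and Pth1rΔNLS 1 both left out, 1 of the 10 passed, Cemip.

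Ptx3 is known to be induced by inflammatory signals, and most tested genes of that response did not pass. Of 18 tested genes for such signals and their targets 2 rose, 2 fell and 14 did not pass (median 0.02), a share close to that of all genes. Nfkbia, an inhibitor of NF-kappaB, was at 33.1 ± 2.14 and 43.8 ± 2.08 FPKM (adjusted p = 0.0168), and the chemokine Ccl2 at 76.8 ± 4.204 and 96.0 ± 2.76 FPKM (0.0217). The adhesion molecule Vcam1 was at 17.3 ± 0.637 and 12.9 ± 0.279 FPKM (0.0135), and the acute phase gene Saa3, named as the remaining gene that passed, at 6.06 ± 1.19 and 3.29 ± 0.417 FPKM (0.0263, and 0.0675 to 0.08696 without WT 1, WT 2, Pth1rΔNLS 2 or Pth1rΔNLS 3). Il1r1, the receptor for interleukin-1, was at 2.48, 2.28 and 2.56 FPKM in WT and at 1.70, a listed 0 and 1.80 FPKM in Pth1rΔNLS (0.226), and Il6 was not analysed here. The number that passed was 2 without WT 1, WT 3, Pth1rΔNLS 1 or Pth1rΔNLS 3, and 0 without Pth1rΔNLS 2 or with WT 1 and Pth1rΔNLS 1 both left out. Some of these genes, Ccl2 among them, are also expressed by macrophages, whose summed markers stood at 131 to 139% of the WT mean. Vcam1 is also counted above among the stromal markers that were lower. The part of macrophage or stromal content in these differences was not tested.

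Around Npr3, 3 tested genes of the cGMP pathway that natriuretic peptides drive were lower. Of 20 genes 9 were tested, of which 3 fell, 0 rose and 6 did not pass, with a median of -0.46. Without the filter on low values 12 were tested, of which 4 fell and 0 rose. Prkg1, a cGMP-dependent protein kinase, was at 4.82, 5.80 and 5.07 FPKM in WT and 2.11, 2.11 and 2.49 FPKM in Pth1rΔNLS (-0.94, SE 0.11, adjusted p = 0.00301), while its relative Prkg2 was at 15.1 ± 1.80 and 16.2 ± 0.581 FPKM (0.579). The cGMP-degrading enzyme Pde5a was at 3.27, 3.496 and 3.35 against 1.41, 1.08 and 1.29 FPKM (-0.96, SE 0.11, adjusted p = 0.00254). In both genes every WT library stood above every Pth1rΔNLS library. Pde3a fell from 2.26 ± 0.185 to 1.36 ± 0.0469 FPKM (0.0293), a call lost without any 1 of the 6 libraries (0.0551 to 0.0997). Npr2, the receptor for C-type natriuretic peptide, which drives bone growth, was at 25.7, 15.8 and 12.4 FPKM in WT and 9.36, 9.14 and 6.82 FPKM in Pth1rΔNLS. The groups did not overlap but WT was widely spread, and the adjusted p was 0.0524, with 0.0393 without WT 3 and 0.06996 to 0.149 without another library. From its highest transcript alone the log2 difference was 0.21 (adjusted p = 0.850), against -0.95 for the summed gene. It passed with a minimum mean of 5 FPKM (0.0491) and with a replicate block (0.0404). Npr1 and the ligand gene Nppc were not analysed here. The cGMP pathway is also active in smooth muscle, and 6 of 7 tested smooth muscle markers were lower in the same libraries (median -1.15), their sum being 2522 to 2683 FPKM in WT and 1266 to 1340 FPKM in Pth1rΔNLS, none at 0 in all libraries. The summed stromal markers, Vim and Fn1 included, stood at 54.9 to 59.3% of the WT mean, and some of these markers fell further. The part of smooth muscle or stromal content in these falls was not tested.

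Most other tested genes of cysteine and taurine metabolism did not pass. Of 24 genes 19 were tested, of which 2 fell, 1 rose and 16 did not pass (median 0.07). Csad, which acts next after Cdo1 on the way to taurine, was at 11.1, 9.27 and 11.6 FPKM in WT and 7.34, 9.03 and 10.3 FPKM in Pth1rΔNLS, with overlap (log2 difference -0.25, SE 0.14, adjusted p = 0.302). Ado, the other thiol dioxygenase, was at 9.02 ± 0.977 and 9.49 ± 0.881 FPKM (0.732). The taurine transporter Slc6a6 was at 175 ± 10.2 and 130.3 ± 13.3 FPKM (0.0252) and Cth, which makes cysteine, at 2.23 ± 0.292 and 1.20 ± 0.230 FPKM (0.0370). Slc7a11, a subunit of the cystine importer, rose from 1.41 ± 0.157 to 2.74 ± 0.0969 FPKM (0.0104). The call of Slc6a6 was lost without WT 2, WT 3, Pth1rΔNLS 1 or Pth1rΔNLS 2 (0.0593 to 0.0895) and that of Cth without any 1 library (0.0565 to 0.112). The number that passed was 1 without WT 3, Pth1rΔNLS 1 or Pth1rΔNLS 2, and 0 with WT 1 and Pth1rΔNLS 1 both left out.

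Refilin B binds filamins, and the filamin genes Flna and Flnc did not pass. Flna was at 181, 175 and 170.4 FPKM in WT and 149.7, 174 and 189 FPKM in Pth1rΔNLS (log2 difference -0.05, SE 0.10, adjusted p = 0.784) and Flnc at 13.98 ± 2.37 and 9.73 ± 1.82 FPKM (0.111, or 0.0378 with array weights). The other refilin gene, Rflna, was not analysed here. Of 16 tested genes for filamins, actin cross-linkers and proteins that link actin to the nucleus, 3 fell, 0 rose and 13 did not pass (median -0.19). Those that fell were Nexn, an actin-binding protein of muscle and smooth muscle (44.3 ± 1.68 to 18.5 ± 1.65 FPKM, adjusted p = 0.000456), Lima1, an actin cross-linker (68.2 ± 3.86 to 42.4 ± 1.36 FPKM, 0.00165), and Actn1, an alpha-actinin (261 ± 24.1 to 154 ± 3.47 FPKM, 0.00210). Their calls held without any 1 library. The smooth muscle markers given beside Npr3 fell in the same libraries, among them the contractile gene Acta2 (log2 difference -1.21, adjusted p = 0.00038), and their part in these falls was not tested.

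Of the paralemmin list around Palmd, 3 genes were tested, of which 2 fell and 1 did not pass. Akap2, on the list for its link to Palm2, is itself an A-kinase anchor gene and not a paralemmin. Akap2 was at 42.7, 58.5 and 60.0 FPKM in WT and 35.1, 33.0 and 26.8 FPKM in Pth1rΔNLS (log2 difference -0.74, SE 0.16, adjusted p = 0.0251), and Palm, the founding member, at 7.88, 5.54 and 8.23 against 3.72, 4.75 and 4.57 FPKM (-0.61, adjusted p = 0.0498). In both, every WT library stood above every Pth1rΔNLS library. Akap2 and Palm2 (2.11 ± 0.467 and 1.25 ± 0.360 FPKM, adjusted p = 0.125) are neighbouring genes whose transcripts can be joined, so their values are uncertain, and Pakap was not analysed here. The call of Akap2 was lost without WT 2, WT 3, Pth1rΔNLS 2 or Pth1rΔNLS 3 (0.0673 to 0.0805) and that of Palm on removal of each library except WT 2 (0.0971 to 0.142). Of the 3 genes 1 passed without WT 1, WT 2, Pth1rΔNLS 1 or both WT 1 and Pth1rΔNLS 1, and 0 without WT 3, Pth1rΔNLS 2 or Pth1rΔNLS 3.

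Arxes1, the copy of Arxes2, fell, and 4 of the 5 signal peptidase genes did not pass. Arxes1 was at 9.01, 9.02 and 11.1 FPKM in WT and 1.73, 1.03 and 1.37 FPKM in Pth1rΔNLS (-2.18, SE 0.15, adjusted p = 0.000427), below the 10 FPKM limit in the WT mean. Because shared fragments may be split between the copies, this is not independent of Arxes2. Spcs3, the gene from which both derive, was at 56.4, 52.5 and 51.2 FPKM in WT and 51.1, 56.0 and 57.0 FPKM in Pth1rΔNLS, with overlap (0.03, SE 0.07, adjusted p = 0.795). Of the 5 signal peptidase genes, Sec11c was at 17.0 ± 4.49 and 28.2 ± 1.89 FPKM (0.0464, higher), a call lost without WT 1 or any 1 Pth1rΔNLS library (0.0750 to 0.129), and the other 4 did not pass. Of the 6 genes of the list, Arxes1 included, 1 passed without WT 1, Pth1rΔNLS 1, Pth1rΔNLS 3 or both WT 1 and Pth1rΔNLS 1.

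Among genes of fat cell differentiation, the setting in which Arxes2 and Cdo1 are known, those that passed as higher were 4 lipid genes. Of 22 genes 10 were tested, of which 4 rose, 1 fell and 5 did not pass (median 0.47). Without the filter on low values 13 were tested, of which 4 rose and 2 fell. Plin2, which coats lipid droplets, was at 93.5, 87.1 and 98.9 FPKM in WT and 151, 171 and 179 FPKM in Pth1rΔNLS (0.83, SE 0.09, adjusted p = 0.00195). The lipid genes Fabp4 (31.9 ± 0.612 to 45.1 ± 3.38 FPKM, 0.00812), Cd36 (179 ± 33.5 to 327 ± 27.9 FPKM, 0.00853) and Lpl (112 ± 8.94 to 154 ± 6.15 FPKM, 0.0113) rose as well. All 4 are also expressed by macrophages, whose summed markers stood at 131 to 139% of the WT mean in the same libraries, and the part of this in their rise was not tested. Ebf1, a transcription factor of marrow stromal cells and fat precursors, fell from 16.4 ± 0.701 to 11.3 ± 0.276 FPKM (0.00667). Pparg, the main regulator of fat cell formation, was at 11.3 ± 1.75 and 8.96 ± 0.622 FPKM (0.162) and Cebpa at 24.5 ± 5.28 and 35.9 ± 6.19 FPKM (0.115). Adipoq, which marks mature fat cells, was at 1.14 FPKM or less in every library. With WT 1 and Pth1rΔNLS 1 both left out, 1 of the 10 passed.

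**Figure D4:**
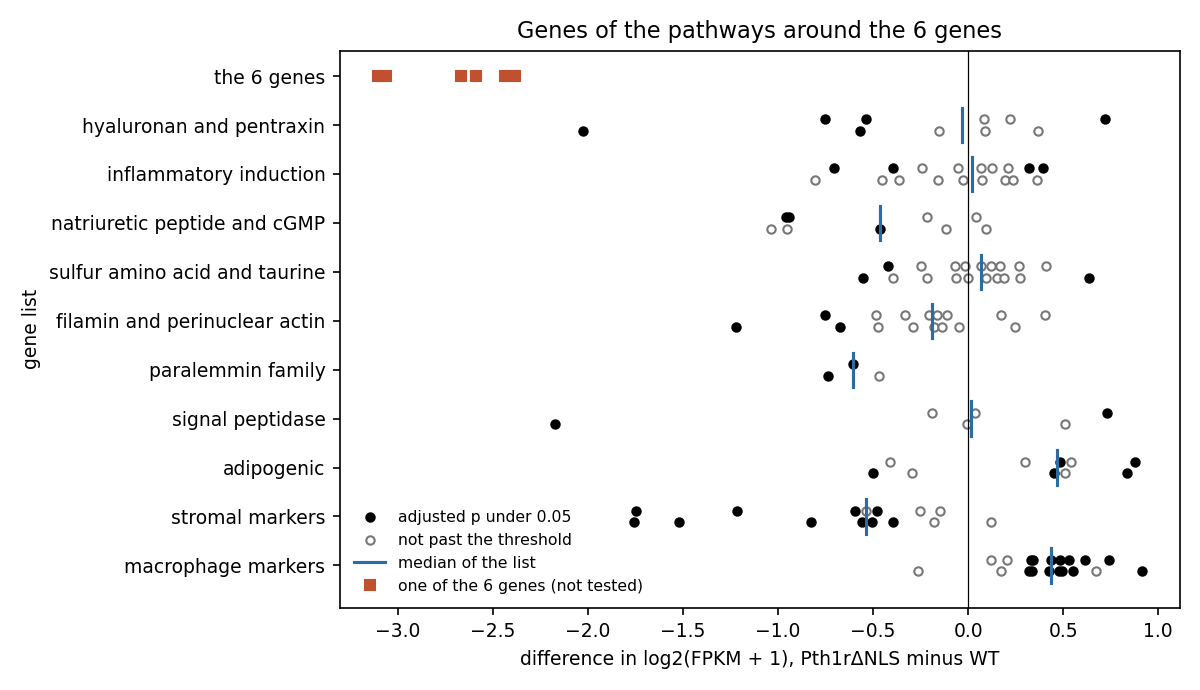
Each point is a gene, placed by its difference in log2(FPKM + 1), Pth1rΔNLS minus WT, in the list it belongs to. Filled points passed an adjusted p of 0.05, open points did not, blue bars are list medians, and the orange squares at the top are the 6 genes, at -3.10 to -2.38, with Arxes1 (-2.18) and Cemip (-2.03) the nearest list genes.

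The genes next to the 6 on the chromosome were examined after values had been seen. The nearest tested gene on each side gave 12 neighbours, of which 4 were lower, 0 higher and 8 did not pass, beside 10.4% of all tested genes lower. Arxes1 was one of the 4. The others were Snx7, 812660 bases from Palmd (63.7 ± 3.09 to 36.7 ± 4.15 FPKM, adjusted p = 0.00315), Shox2, a skeletal transcription factor 745922 bases from Ptx3 (21.7 ± 5.25 to 11.2 ± 1.71 FPKM, 0.0283), and Eif1a, 96737 bases from Cdo1 (56.5 ± 4.52 to 45.8 ± 0.785 FPKM, 0.0421). Shox2 did not pass on removal of each library except WT 2 (0.0645 to 0.0863) and Eif1a without any 1 library (0.0593 to 0.131). Atg12, a gene of autophagy whose nearer end lies 1749 bases from Cdo1, was at 20.6 ± 0.861 and 21.7 ± 1.51 FPKM (log2 difference 0.07, SE 0.08, adjusted p = 0.613). Frrs1, 10081 bases from Palmd, was at 16.0 ± 0.129 and 19.99 ± 1.68 FPKM (0.30, adjusted p = 0.0516, or 0.0404 to 0.0463 in 4 of the alternative settings, where it passed as higher). Vps53, 18444 bases from Rflnb, was at 18.0 ± 2.67 and 15.3 ± 3.98 FPKM (0.453), and Sub1, 74052 bases from Npr3, at 32.5 ± 1.95 and 27.2 ± 1.96 FPKM (0.0913).

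**Figure D5:**
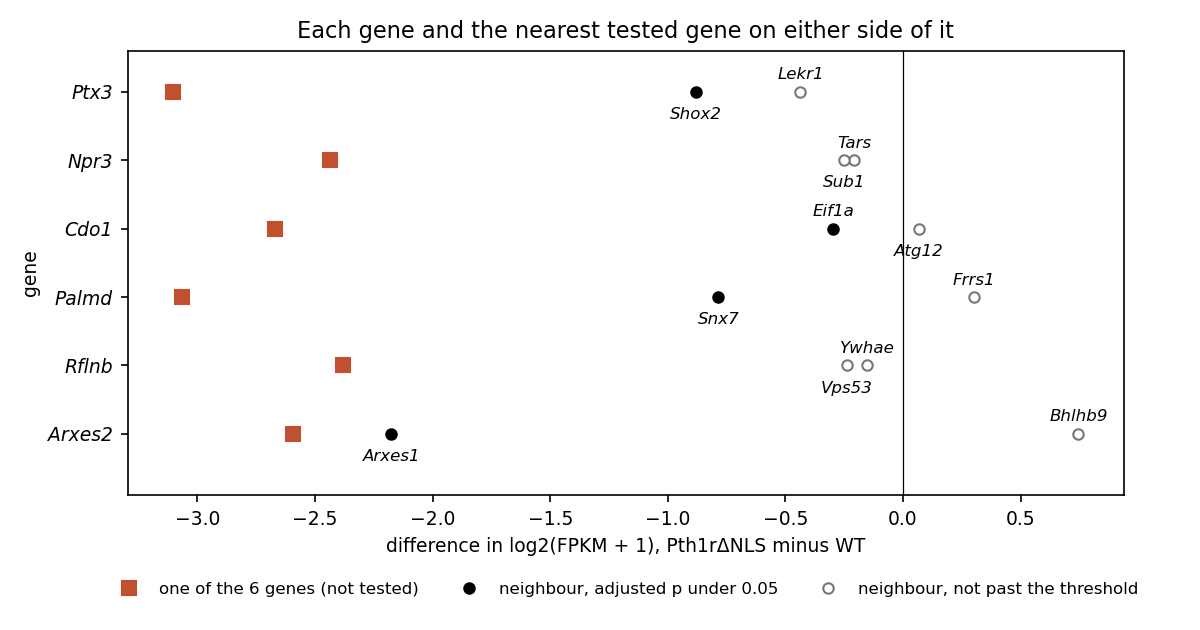
Differences in log2(FPKM + 1), Pth1rΔNLS minus WT, are shown for each of the 6 genes (orange squares) and the nearest tested gene on either side of it (filled circles passed an adjusted p of 0.05, open circles did not). Apart from Arxes1, at -2.18, no neighbour of the 6 lies below -0.88, the value of Shox2.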

How the data were processed

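Total RNA of 6 stromal cell preparations was sequenced from TruSeq libraries, per the labels' protocols. HISAT2, StringTie and mm10 are named in the submitters' processing notes, with no version or setting. The authors deposited 1 value per transcript and library for 23351 transcripts. The header names no unit, and the deposited values were taken as FPKM because their sums times transcript length were nearly equal between libraries (75.0 to 78.1% of the total that FPKM would give). Depth is unknown, so no counting interval is given.

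Transcripts were matched by identifier to GENCODE M21, 23300 of 23351, and summed per gene. The 51 unmatched transcripts were left out. The whole table was fitted with limma 3.58.1 (lmFit, then eBayes with trend) in R 4.3.3 on log2(FPKM + 1), Pth1rΔNLS minus WT, for 10905 genes averaging 1 FPKM or more over the 6 libraries. Two-sided p-values were adjusted by Benjamini-Hochberg, with 0.05 as threshold. Fold changes on this scale understate low genes. The fit was first tested on simulated data. Tables, motifs and plots used Python 3.11.15 with pandas 2.3.3, numpy 2.4.6 and matplotlib 3.10.9.

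The 6 genes and the lists were chosen with earlier results of these data known. Since this contrast chose the 6, it was not tested for them. Beyond them the text names genes fixed by name (1 of which is not reported here), up to 3 genes of smallest p that passed in each of 8 pathway lists, the 3 most similar profiles per gene and the genes next to the 4-fold limit, and other names were added after their values were seen (Saa3, Prkg2, Cd36, Lpl, Palm2, the chromosomal neighbours, and the markers of cell types). Alternatives were pseudocount 0.1, no filter or a minimum mean of 5 FPKM, each library left out, a replicate block, 2 rescalings, the highest transcript alone, array weights, and both libraries of extreme mitochondrial share left out.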

Additional observations from a re-analysis of the deposited data

How the results depend on the processing

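All 6 genes stayed lower in Pth1rΔNLS under every alternative run. They were chosen on this contrast, and their lowest WT value was 4.81 (Rflnb) to 9.90 (Palmd) times the highest Pth1rΔNLS value. The sign could thus hardly change, and nothing is read from its staying the same. A pseudocount of 0.1 in place of 1 moved 5 of them by more than the spread between libraries, to -3.22 (Ptx3), -2.79 (Npr3), -3.03 (Cdo1), -3.58 (Palmd) and -2.82 (Arxes2). Rescaling, array weights and the highest transcript alone moved none of the 6 by as much. Over the refits of the genes outside the 6 that are printed with a limma p or as neighbours, 754 results stayed on their side of the threshold, 109 calls were lost, 8 were gained and 1 called value changed sign, Emcn, at 0.016 with the highest transcript alone (adjusted p = 0.989). Npr2, Ado, Flna, Pparg, Vps53 and Prkg2, which had not passed, changed sign in at least 1 setting.

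The count over the whole table (1886, of which 757 higher and 1129 lower) ran from 1051 to 1712 with 1 library left out (348 to 695 higher, 703 to 1017 lower), was 620 (191 higher, 429 lower) with WT 1 and Pth1rΔNLS 1 (lowest and highest mitochondrial share) both left out, and had 472 higher with the highest transcript alone. Deviations of same-numbered libraries correlated at -0.19, -0.07 and 0.07, so no pairing by replicate number was seen. A shared effect on few genes could be missed by this. With a replicate block the count was 792 (232 higher, 560 lower), and the lists gave 3 genes for hyaluronan, 1 for inflammation, 0 for sulfur amino acids, 0 for paralemmins and 1 for the signal peptidase, with 6 stromal markers lower and 5 macrophage markers higher.

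Main counts per list were 5 (hyaluronan), 4 (inflammatory), 3 (natriuretic), 3 (sulfur), 3 (filamin), 2 (paralemmin), 2 (signal peptidase) and 5 (adipogenic). With 1 library left out they ran from 5 to 5, 0 to 5, 2 to 3, 1 to 3, 3 to 3, 0 to 1, 1 to 2 and 5 to 5. With WT 1 and Pth1rΔNLS 1 both left out they were 1 (hyaluronan), 0 (inflammatory), 0 (sulfur), 1 (paralemmin), 1 (signal peptidase) and 1 (adipogenic). With a minimum of 5 FPKM fewer genes were tested, and Pde5a, Prkg1 and Pde3a were no longer among them. The 1 natriuretic gene that then passed was Npr2, which had not passed in the main fit. The 1 sulfur gene that passed was Slc6a6. Array weights gave 5 sulfur and 6 filamin genes, and the highest transcript alone 3 hyaluronan genes and 1 gene of the paralemmin list. Of that list 1 gene passed without a filter or after rescaling without mitochondrial transcripts, while a pseudocount of 0.1 left 1 signal peptidase gene. The cause of these shifts was not tested beyond what fewer samples or genes imply. With 3 libraries per genotype and unknown depth, small differences between low genes cannot be resolved.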

Other observations

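Markers of other marrow cell types were listed together with the pathways. Of 7 tested smooth muscle genes 6 fell, among them Mylk, a myosin light chain kinase (65.9 ± 3.07 to 19.7 ± 0.325 FPKM, limma adjusted p = 9.03e-05), and Lmod1, encoding leiomodin (23.6 ± 1.31 to 5.64 ± 0.371 FPKM, 0.000128), which is also one of the 32 genes within the limits that chose the 6. Of 6 tested osteoblast genes 5 fell and 1, Spp1, did not pass (4909 ± 267 and 5440.34 ± 491 FPKM, adjusted p = 0.421). Of 4 tested endothelial genes 2 fell, Cdh5 (4.05 ± 0.146 to 2.30 ± 0.165 FPKM, 0.00884) and Emcn (4.28 ± 1.18 to 2.26 ± 0.231 FPKM, 0.0422, and 0.0690 to 0.124 on removal of each library except WT 2), and summed endothelial markers were at most 14.5 FPKM in any library. The adipocyte list had 1 tested gene, Fabp4, which rose and which macrophages also express. Of 8 neutrophil and B cell genes the table lists 1, S100a8, at most 0.978 FPKM in any library.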
